A study of Homo sapiens with 9 samples.

Results

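Chromosome 17 is a gene-dense human chromosome, and the accessible sites described here are the ATAC-seq peaks assigned to it in HEK293T, a transformed and widely used line of human embryonic kidney origin. ATAC-seq uses the Tn5 transposase, which inserts sequencing adapters preferentially into open DNA, so that a peak marks a stretch of accessible chromatin. The members are all entries on the assembled chromosome 17 in the 4 deposited peak lists, 1 list per group, and they number 8161 of 194414 peaks. The control list held 1856 of them among 39194 peaks. The knockout lists held 1792 of 50917 (IGF2BP1), 2430 of 60262 (IGF2BP2) and 2083 of 44041 (IGF2BP3). Where 4 values follow each other below, they stand in this order of lists, control first. Peaks on unlocalized sequences assigned to chromosome 17, between 15 and 20 per list, were not counted.

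The 9 libraries fall into 4 groups, all from untreated HEK293T cells. The control received a guide that targets no mammalian gene (2 libraries, batches 2 and 3), and the knockouts carried disrupted IGF2BP1 (3 libraries, batches 1, 2 and 3), IGF2BP2 (2 libraries, batches 2 and 3) or IGF2BP3 (2 libraries, batches 2 and 3). Each knockout was 1 clone grown from a single sorted cell after transfection with a plasmid carrying 3 guides, so genotype and clone cannot be told apart. Whether the control cells were a clone is not given in the sources used here. Batch 1 entered the IGF2BP1 knockout alone, and its part in any difference below was not tested. A list gives only the position of each peak, with no value per library and no read depth, so that no spread between replicates could be measured and nothing was tested across replicates. Chromosome 17 was chosen by its peak counts in these lists, after its low share in the IGF2BP1 knockout list had been seen. The comparisons with that list are therefore descriptions without a test, and their 95% intervals cover counting error over peaks only. Among marker genes examined as a check of the cell line, 4 of 5 for HEK293T, VIM, NEFL, NEFM and NES, had a peak within 1 kb of a gene end in all 4 lists. The fifth, PAX2, a renal transcription factor gene, had none in any list, as did the blood gene PTPRC, the liver gene ALB and the muscle gene ACTA1. The blood gene SPI1, the liver gene APOA1 and the muscle gene MYOD1 had one in all 4 lists, and the blood gene CD3E in the IGF2BP1 knockout list.

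IGF2BP1, IGF2BP2 and IGF2BP3 are cytoplasmic RNA-binding proteins that bind messenger RNAs and affect their stability, transport and translation, and they are abundant in embryonic tissue and in many tumours. The gene for IGF2BP1 itself lies on the long arm of chromosome 17, which also holds the HOXB cluster of homeobox genes, the type I keratin cluster and a cluster of CC chemokine genes. Open sites at gene starts are typically promoters and those elsewhere often enhancers or insulator sites.

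Sites were formed by merging peaks of the 4 lists that shared at least 1 bp. Of 2730 sites on chromosome 17, 124 were held by the control, IGF2BP2 knockout and IGF2BP3 knockout lists and absent from the IGF2BP1 knockout list. Of these, 9 (7.26%) overlapped 1 or more of the 300-base promoter windows given by RefSeq (GRCh38.p14, 250 bases before to 50 after a start site), for 10 genes. Each of the 10 windows is overlapped by a site that 3 lists held and the IGF2BP1 knockout list lacked. The windows of 6 genes are shown, chosen after their values were seen to cover both arms and a range of base composition, and those of ARMC7, ATXN7L3-AS1, FGF11 and UBTF are not. The first 3 lie on the short arm (PITPNM3 at chr17:6556506-6556805, TEKT1 at chr17:6831680-6831979 and ZNF287 at chr17:16569155-16569454, each on the minus strand). The others lie on the long arm (CNTNAP1 at chr17:42682281-42682580 and IFI35 at chr17:43006534-43006833, plus strand, and LGALS3BP at chr17:78979874-78980173, minus strand). Capitals mark matches, on either strand, to the GC box GGGCGG, the CCAAT box CCAAT, the TATA box TATAAA, the interferon response core (GAAA, any 2 bases, GAAA) and the ETS core CCGGAA.
PITPNM3: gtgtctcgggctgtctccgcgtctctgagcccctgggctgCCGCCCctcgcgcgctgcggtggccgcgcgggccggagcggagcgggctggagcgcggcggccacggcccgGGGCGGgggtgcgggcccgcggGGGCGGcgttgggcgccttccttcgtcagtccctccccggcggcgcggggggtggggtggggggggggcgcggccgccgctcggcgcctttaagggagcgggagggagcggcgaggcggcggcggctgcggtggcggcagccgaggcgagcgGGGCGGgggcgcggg
TEKT1: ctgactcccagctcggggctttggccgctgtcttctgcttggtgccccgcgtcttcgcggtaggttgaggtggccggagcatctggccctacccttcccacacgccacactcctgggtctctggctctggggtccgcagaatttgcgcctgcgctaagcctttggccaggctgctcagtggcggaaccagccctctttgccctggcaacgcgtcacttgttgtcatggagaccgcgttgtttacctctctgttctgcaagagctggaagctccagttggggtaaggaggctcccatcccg
ZNF287: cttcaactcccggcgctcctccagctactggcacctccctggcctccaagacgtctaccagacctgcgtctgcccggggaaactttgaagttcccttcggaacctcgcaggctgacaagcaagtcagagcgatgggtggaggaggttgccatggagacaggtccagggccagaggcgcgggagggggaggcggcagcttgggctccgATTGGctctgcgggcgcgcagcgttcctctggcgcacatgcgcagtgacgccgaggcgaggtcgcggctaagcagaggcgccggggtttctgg
CNTNAP1: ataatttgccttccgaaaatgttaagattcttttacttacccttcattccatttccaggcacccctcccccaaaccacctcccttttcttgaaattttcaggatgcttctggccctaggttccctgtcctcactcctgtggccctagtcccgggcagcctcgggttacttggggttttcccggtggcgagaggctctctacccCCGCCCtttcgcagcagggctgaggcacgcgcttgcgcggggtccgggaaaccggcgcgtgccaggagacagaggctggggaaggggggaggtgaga
IFI35: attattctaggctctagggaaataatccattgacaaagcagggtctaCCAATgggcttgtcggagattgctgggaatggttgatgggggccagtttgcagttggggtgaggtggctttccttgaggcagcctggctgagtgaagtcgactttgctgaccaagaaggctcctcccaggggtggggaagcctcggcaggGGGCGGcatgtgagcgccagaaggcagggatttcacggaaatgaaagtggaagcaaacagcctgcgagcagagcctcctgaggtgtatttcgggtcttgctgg
LGALS3BP: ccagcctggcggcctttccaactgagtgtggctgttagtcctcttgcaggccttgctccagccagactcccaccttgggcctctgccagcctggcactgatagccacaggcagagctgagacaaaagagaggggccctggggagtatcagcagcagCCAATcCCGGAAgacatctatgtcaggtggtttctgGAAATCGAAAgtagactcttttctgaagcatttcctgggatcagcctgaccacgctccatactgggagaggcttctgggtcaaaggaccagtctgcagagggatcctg

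The 6 windows ranged widely in base composition. PITPNM3, which encodes a membrane-associated phosphatidylinositol transfer protein, had the most GC-rich window, at 84.0% with 51 CpG dinucleotides and 4 GC boxes. TEKT1, which encodes a tektin of ciliary microtubules, held 17 CpG dinucleotides and none of the 5 motifs. ZNF287, a zinc finger gene, had 25 CpG dinucleotides and 1 CCAAT box. CNTNAP1, which encodes a protein of the axon junctions beside nodes of Ranvier, held 1 GC box. IFI35, an interferon-induced gene, had 8 CpG dinucleotides, 1 GC box and 1 CCAAT box. LGALS3BP, which encodes a secreted galectin-binding glycoprotein, had the fewest CpG dinucleotides of the 10 windows, 4, and the single match to the interferon response core among them. Its CCAAT box and ETS core lie next to each other without overlap. Among all 35116 promoter windows of the table, a GC box was present in 45.0%, a CCAAT box in 34.6%, a TATA box in 11.5%, an ETS core in 17.2% and an interferon response core in 3.57%. On chromosome 17, 846 of 1639 windows covered a site of all 4 lists, with a median GC content of 67.7% and 28 CpG dinucleotides. The 726 windows without a peak in any list had medians of 54.0% and 5.5, and the 10 windows at sites absent from the IGF2BP1 knockout list had medians of 65.8% and 21. A motif match is a description of the letters only.

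The IGF2BP1 knockout list held fewer chromosome 17 peaks than the control, although it was the longer list. Its 1792 peaks were 0.966 times the control's 1856, whereas the whole list was 1.30 times as long as the control's. Chromosome 17 thus made up 3.52% of the IGF2BP1 knockout list (Wilson 95% interval 3.36 to 3.68), 4.74% of the control list (4.53 to 4.95), 4.03% of the IGF2BP2 knockout list (3.88 to 4.19) and 4.73% of the IGF2BP3 knockout list (4.54 to 4.93). The ratio of shares to the control was lowest on chromosome 17 of 23 chromosomes (1 to 22 and X) in the IGF2BP1 knockout list, at 0.743 (95% counting interval 0.697 to 0.792), with chromosome 19 next at 0.823. In the IGF2BP2 knockout list chromosome 17 had rank 4 from the lowest, at 0.852 (0.803 to 0.903), and in the IGF2BP3 knockout list rank 9, at 0.999 (0.940 to 1.06). The 3 ratios share 1 control list.

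**Figure D1:**
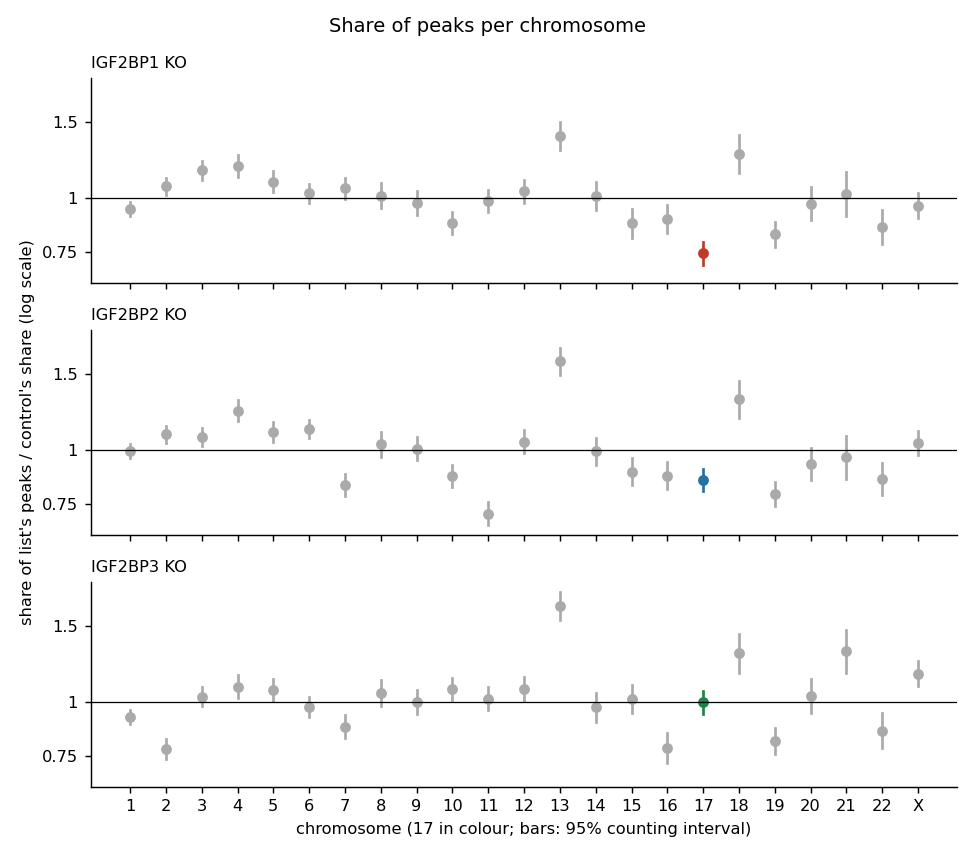
Share of each list's peaks on chromosomes 1 to 22 and X divided by the control list's share (log scale), 1 panel per knockout, with 95% counting intervals as bars and chromosome 17 in colour. Chromosome 17 is the lowest point for the IGF2BP1 knockout and lies at 0.852 and 0.999 for the IGF2BP2 and IGF2BP3 knockouts.

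Peaks on chromosome 17 were wider than elsewhere in every list. Their median width was 814.5 bp in the control list against 769 bp on the other chromosomes, and 898 bp against 832 bp in the IGF2BP1 knockout list. It was 670 bp against 650 bp in the IGF2BP2 knockout list and 753 bp against 712 bp in the IGF2BP3 knockout list. Taken singly, other chromosomes had larger medians in these 2 lists, such as chromosome 19 (708 bp, IGF2BP2 knockout) and chromosome 16 (761 bp, IGF2BP3 knockout). The peaks of the 4 lists covered 1.67, 1.77, 1.89 and 1.77 Mb. The lists thus ordered differently by number than by length covered, with the IGF2BP1 knockout holding the fewest and the widest peaks. Counts by width differed between the lists. Under 400 bp, the lists held 117, 50, 301 and 200 chromosome 17 peaks, and 3040, 1639, 7925 and 4766 peaks in all. The smaller number of such narrow peaks in the IGF2BP1 knockout list was thus not particular to chromosome 17. From 400 to 600 bp, the 4 chromosome 17 counts were 379, 276, 690 and 509, and from 600 to 900 bp they were 561, 574, 702 and 590. At 1300 bp and above they were 297, 384, 255 and 303. Relative to all peaks of the same width, the IGF2BP1 knockout share on chromosome 17 was 0.672 to 0.816 times the control share in the 5 width classes. This ratio was lowest from 400 to 600 bp and was 0.793 under 400 bp.

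The 3 widest peaks of each list lay at 10 places. The widest of the control list spanned 76383085 to 76386314 over SPHK1, which encodes a sphingosine kinase. It measured 3230, 2918, 2604 and 2452 bp. The widest of the IGF2BP1 knockout list, 3069 bp over ARHGDIA, was met by 2564 bp in the control, 687 bp in the IGF2BP3 knockout and no peak in the IGF2BP2 knockout. The widest IGF2BP2 knockout peak was at FLCN, which encodes folliculin, with 2603 bp against 2495 bp in the control and 1594 bp in the IGF2BP1 knockout. A peak over the long non-coding gene LINC00324 and 3 tRNA genes was among the widest in the control and the IGF2BP3 knockout, at 2816 and 2741 bp. The other widest peaks lay over TBC1D16 in the control, over PFN1 and ENO3 in the IGF2BP1 knockout, over PLXDC1 and over CTC1 and PFAS in the IGF2BP2 knockout, and over NPTX1 and over TOB1 in the IGF2BP3 knockout.

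The arms were separated at 25 Mb, near a stretch of 0.653 Mb (24421523 to 25074347) that held no peak of any list. The short arm held 521, 438, 721 and 574 peaks. The long arm held 1335, 1354, 1709 and 1509. In the IGF2BP1 knockout list the short arm thus had 0.841 times the control's number and the long arm 1.01 times. As shares of their lists these were 0.647 (95% counting interval 0.570 to 0.734) and 0.781 (0.725 to 0.841) times the control. For IGF2BP2 the short-arm ratio was 0.900 (0.805 to 1.01) and the long-arm ratio 0.833. For IGF2BP3 these were 0.980 (0.872 to 1.10) and 1.01. In the IGF2BP1 knockout the short arm had the lower ratio of the 2 arms, and in the IGF2BP2 knockout the long arm had it. Median widths on the short arm were 832, 908, 680 and 782 bp. On the long arm they were 800, 896.5, 667 and 739 bp. Between 22 and 27 Mb, around the centromere, the lists held 17, 5, 27 and 15 peaks.

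In 5 Mb windows, numbered from the short-arm end, the control list held between 32 and 190 peaks. All 17 windows had a mean of at least 20 peaks over the lists. The IGF2BP1 knockout share was below the control share in 16 of 17 windows, with ratios of 0.540 to 1.00 and a median of 0.747. In the 558 windows of the other chromosomes with a mean of at least 20 peaks, it was below the control share in 43.9%. The IGF2BP2 knockout share was below the control in 15 of 17 windows (median ratio 0.855) and that of the IGF2BP3 knockout in 10 (median 0.970). In 14 of 17 windows the IGF2BP1 knockout had the lowest share of the 3 knockouts, against 21.0% of windows elsewhere. The windows divide the counts for which chromosome 17 was chosen, so these contrasts are partly built in. Windows are not replicates, and nothing was tested. By number, the IGF2BP1 knockout list held fewer peaks than the control in 10 windows and more in 7, while the other knockout lists held more in all 17.

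The 3 lowest ratios of the IGF2BP1 knockout were on the short arm. From 20 to 25 Mb the lists held 47, 33, 68 and 50 peaks (ratio 0.540). From 5 to 10 Mb these were 151, 123, 175 and 156 (ratio 0.627), and from 0 to 5 Mb 150, 126, 205 and 167 (ratio 0.647). The 3 highest ratios were on the long arm. From 65 to 70 Mb the lists held 72, 94, 112 and 103 peaks (ratio 1.00). From 70 to 75 Mb they held 83, 98, 115 and 114 (ratio 0.909) and from 55 to 60 Mb 97, 108, 118 and 114 (ratio 0.857). In the window from 10 to 15 Mb, which had the fewest control peaks, 32, the IGF2BP2 and IGF2BP3 knockout lists held 73 and 49, ratios of 1.48 and 1.36, and the IGF2BP1 knockout list 34. The median width was above that of the control in all 17 windows in the IGF2BP1 knockout list, in none in the IGF2BP2 knockout list and in 2 in the IGF2BP3 knockout list. The difference in the IGF2BP1 knockout ranged from 9 bp (70 to 75 Mb) to 163.5 bp (60 to 65 Mb).

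**Figure D2:**
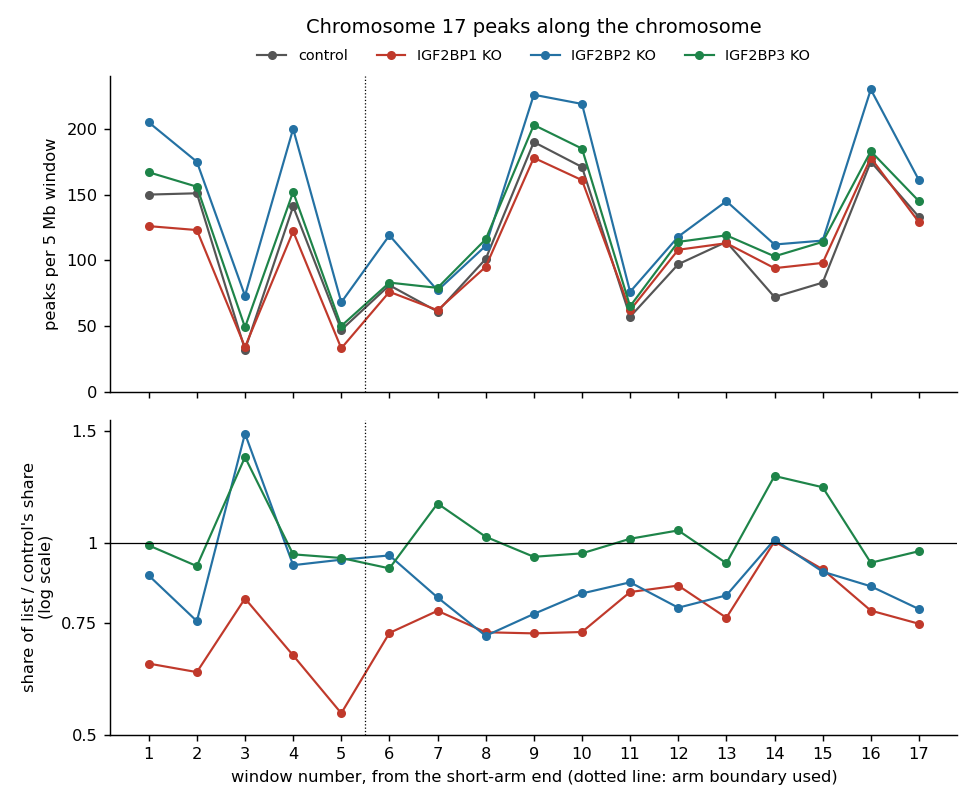
Peaks of the 4 lists in the 17 windows of 5 Mb along chromosome 17 (upper panel) and the share of each knockout list's peaks in a window divided by the control list's share (lower panel, log scale), with the arm boundary dotted. The IGF2BP1 knockout line lies lowest in the 5 short-arm windows and reaches 1.00 in window 14.

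The sites absent from the IGF2BP1 knockout list alone were set beside the sites that all 4 lists held. The control, IGF2BP2 knockout and IGF2BP3 knockout lists shared 1557 chromosome 17 sites, of which 124 (7.96%, Wilson 95% interval 6.72 to 9.41) were absent from the IGF2BP1 knockout list. Over chromosomes 1 to 22 and X, 951 of 30467 such sites were absent, a background of 3.12%. Chromosome 17 held 13.0% of those 951 sites and 5.11% of the 30467. The percentage was the highest of 23 chromosomes, and the other 22 ranged from 1.48% (chromosome 7) to 4.86% (chromosome 10).

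For each of the other lists the chromosome 17 percentage was below its background. These percentages count only sites that the IGF2BP1 knockout list held. Chromosome 17 was chosen for its low share in that list, so they partly follow from the choice. The IGF2BP2 knockout list alone lacked 22 sites, 1.51% of those in the other 3 lists, beside a background of 2.11%. The IGF2BP3 knockout list alone lacked 56, 3.76% beside a background of 11.1%, the lowest percentage of its 23 chromosomes. The control list alone lacked 129, 8.26% beside a background of 14.3%.

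**Figure D3:**
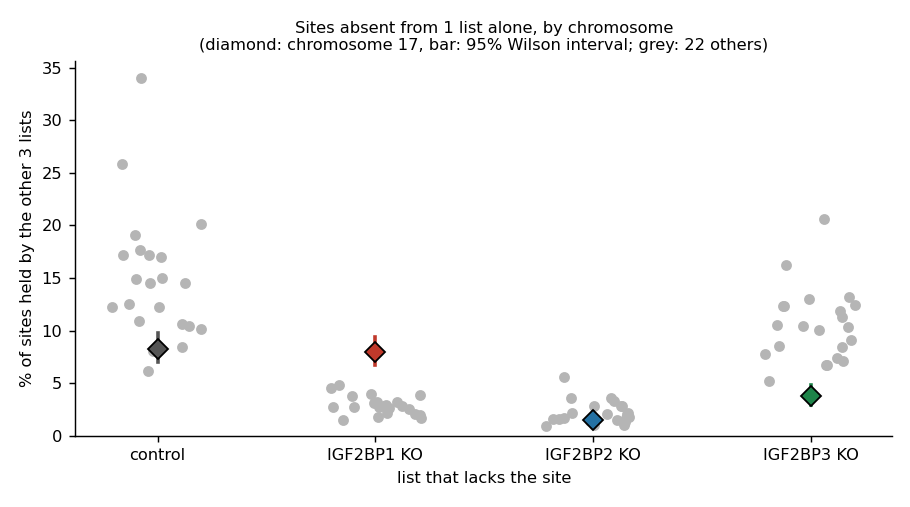
Percentage of the sites held by 3 lists that the remaining list lacked, for each of the 4 lists, with chromosome 17 as a diamond (bar: 95% Wilson interval) and the other 22 chromosomes as grey points. Chromosome 17 stands above the other chromosomes for the IGF2BP1 knockout list, at 7.96% against at most 4.86%, and below them for the IGF2BP3 knockout list, at 3.76%.

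In each of 7 classes of sites, defined by which of the other 3 lists held them, the IGF2BP1 knockout list held a lower percentage on chromosome 17 than elsewhere. The classes divide the counts of the list for which chromosome 17 was chosen. Their common direction is therefore partly built in. Of 122 chromosome 17 sites that the control and IGF2BP2 knockout lists held and the IGF2BP3 knockout list did not, the IGF2BP1 knockout list held 45.9% (37.3 to 54.7), against 77.1% on the other chromosomes. Of 290 sites in the IGF2BP2 and IGF2BP3 knockout lists without a control peak, it held 44.5% (38.9 to 50.2), against 67.4%. Of 412 sites in the IGF2BP2 knockout list and neither other list, it held 62, or 15% (11.9 to 18.8), against 34.8%. Of 161 in the IGF2BP3 knockout list and neither other list, it held 18.0% (12.8 to 24.7), against 21.6% (20.4 to 22.8). The intervals of that class overlapped, but intervals here count sites and are no test in any class. Sites in the IGF2BP1 knockout list alone numbered 33 on chromosome 17, 1.21% of its sites, and made up 6.24% of the sites elsewhere.

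Absence was more frequent among narrow sites, and the percentage was higher on chromosome 17 than elsewhere in all 5 width classes. The intervals count sites and are no test. Among sites of the 3 lists whose control width was under 400 bp, 27 of 57 (47.4%, 35.0 to 60.1) were absent from the IGF2BP1 knockout list, against 19.6% on the other chromosomes. From 400 to 600 bp, 46 of 244 were absent (18.9% against 7.66%), from 600 to 900 bp 36 of 474 (7.59% against 2.17%), and from 900 to 1300 bp 14 of 480 (2.92% against 0.463%). At 1300 bp and above it was 1 of 302 (0.331%, 0.0585 to 1.85), against 0.179% elsewhere, which rests on 1 absent site. Chromosome 17 was chosen for its low share in this list, so a higher percentage in each class is partly built in.

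**Figure D4:**
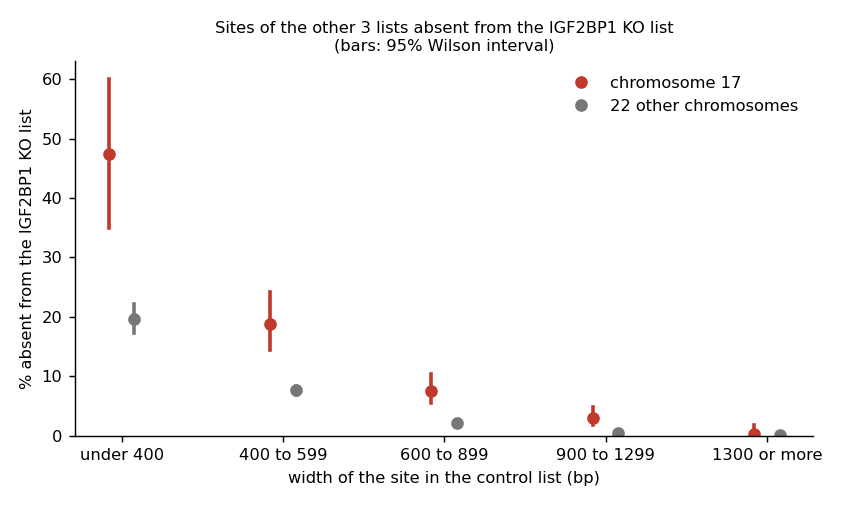
Percentage of sites held by the control, IGF2BP2 knockout and IGF2BP3 knockout lists that the IGF2BP1 knockout list lacked, by the width of the site in the control list in bp, with 95% Wilson intervals as bars. Chromosome 17 lies above the other 22 chromosomes in each class, with 47.4% against 19.6% in the narrowest and 0.331% (1 site) against 0.179% in the widest.

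The absent sites were unevenly spread along the chromosome. On the short arm 56 of 439 sites were absent from the IGF2BP1 knockout list (12.8%, 9.96 to 16.2). On the long arm 68 of 1118 were absent (6.08%, 4.83 to 7.64), and on the other chromosomes 2.86% (2.67 to 3.06). Chromosome 17 was chosen for its low share in this list, so an excess over the other chromosomes is partly built into the choice. The intervals count sites and are no test. In windows, the percentage ran from 3.61% (55 to 60 Mb, 3 of 83 sites) to 25% (20 to 25 Mb, 10 of 40 sites). It was 13.7% from 5 to 10 Mb (17 of 124) and 12% from 0 to 5 Mb (15 of 125). The window from 20 to 25 Mb takes in part of the stretch around the centromere. The smallest of the 3 widths ran from 235 to 949 bp over its 10 absent sites. How uniquely reads map there was not examined. All 17 windows lay above 2.5%, the median of the 475 windows of other chromosomes with at least 25 such sites. Of those 475 windows, 5 reached 12%, and the highest, 22.5%, lay on chromosome 1 from 120 to 125 Mb.

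Most absent sites were well apart from any peak of the IGF2BP1 knockout list. The median distance to its nearest peak was 9.59 kb, and 117 of 124 sites lay at least 1 kb away. The 5 nearest lay 248 bp (44220648 to 44221621, over UBTF), 328, 594, 646 and 813 bp from one. On the other side of the rule, the shared sites with the least overlap were covered by an IGF2BP1 knockout peak over 280 bp (68011039 to 68011547), 320 bp (in UBE2G1), 321, 325 and 339 bp. Thus none of the 124 absent sites lay within 100 bp of such a peak, and none of the 1433 sites in all 4 lists overlapped one by under 100 bp.

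The absent sites were narrow and mostly away from gene ends. Their median widths were 543.5, 545 and 536.5 bp in the control, IGF2BP2 knockout and IGF2BP3 knockout lists, against 935, 889 and 915 bp for the 1433 sites in all 4 lists. Their control peaks had a median width percentile of 23.2 within the control list. A gene end of any kind lay within 1 kb of 26 sites (21.0%), against 57.4% of the sites in all 4 lists. Sites absent from the IGF2BP1 knockout list on other chromosomes had a control median of 510 bp and a gene end at 17.7%. Chromosome 17 sites absent from the IGF2BP3 knockout list alone were similar, at 554.5 bp and 10.7%. Those absent from the IGF2BP2 knockout list alone, 22 sites, had 688 bp and 50%. Of those absent from the control list alone, 23.3% had a gene end within 1 kb. Of the 124, 60 overlapped a protein-coding gene, with 57 genes in all, and 46 overlapped no annotated gene. Exons, introns and UTRs were not determined, since the annotation used gives gene spans.

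At 16 of the 124 sites a protein-coding gene end lay within 1 kb. On the short arm there were 6. The site at RTN4RL1, a Nogo receptor family gene, spanned 2024821 to 2026149 and measured 1043, 804 and 1109 bp in the control, IGF2BP2 and IGF2BP3 knockout lists, the order of the 3 widths in what follows. The site at SERPINF1, which encodes a secreted serpin also known as PEDF, spanned 1761703 to 1763494 and was unequal between the lists that held it, at 1792, 252 and 530 bp. The site at PITPNM3 (6555960 to 6557205, the window printed first above) measured 955, 819 and 1153 bp, with the nearest IGF2BP1 knockout peak 82.4 kb away. The site at TEKT1 (6831344 to 6832249) measured 860, 581 and 844 bp and lay 81.5 kb from one. AIPL1, a gene for a photoreceptor chaperone, had a site of 782, 668 and 668 bp 0.648 kb outside the gene, and ZNF287 one of 784, 647 and 754 bp at 16568607 to 16569437. At RTN4RL1 and SERPINF1 the IGF2BP1 knockout list had its nearest peak 3.59 and 6.09 kb away.

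The other 10 sites at protein-coding gene ends were on the long arm. At IFI35 the site spanned 43006569 to 43007168 and measured 465, 522 and 573 bp, and the nearest IGF2BP1 knockout peak was 7.74 kb away. At LGALS3BP the site (78979803 to 78980437) measured 635, 333 and 364 bp, and 4.02 kb separated it from an IGF2BP1 knockout peak. CNTNAP1 had a site of 642, 556 and 630 bp, which lies within 1 kb of an end of CCR10, a chemokine receptor gene, and CCR10 had a further site of 479, 369 and 381 bp. The site at UBTF, which encodes a factor of ribosomal RNA transcription by RNA polymerase I, measured 974, 648 and 854 bp. TLK2, a kinase gene, had a site of 1106, 640 and 425 bp, and TNS4, a tensin gene of focal adhesions, one of 572, 540 and 609 bp. A site of 946, 716 and 447 bp overlapped both ARMC7 and SLC16A5, the latter a monocarboxylate transporter gene. The remaining sites were near CD300LG (733, 502 and 500 bp) and the uncharacterized LOC124904077 (741, 516 and 1140 bp).

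Away from protein-coding gene ends, the 12 widest sites at least 1 kb from any IGF2BP1 knockout peak included 11 on the short arm. Ranked by the smallest of the 3 widths, the first lay at 24187767 to 24188796 (949, 1028 and 957 bp) and the next at 22703190 to 22704360 (1171, 1049 and 906 bp, over the pseudogene WEE1P2), both near the centromere. The third lay in NTN1, the gene of the axon guidance protein netrin-1, at 9028012 to 9029142, with 1072, 824 and 965 bp. Others lay in UBE2G1, a ubiquitin-conjugating enzyme gene (746, 1090 and 774 bp), in FGF11 over one of its start sites (886, 790 and 742 bp) and in SMG6, a gene of nonsense-mediated RNA decay (884, 919 and 685 bp). The single long-arm site of the 12 was in LRRC37B, at 849, 839 and 733 bp. The 5 not named lay outside protein-coding genes. The site with the largest smallest width of all 124, chosen after its values were seen, lay in KDM6B, a histone H3 lysine demethylase gene, at 7841488 to 7842718 (987, 1231 and 1105 bp). Its gap of 921 bp to an IGF2BP1 knockout peak kept it from the ranked sites.

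Counted by gene, the number of genes with a gene-end peak on chromosome 17 was close between the lists. Of 1169 protein-coding genes, 790, 794, 809 and 808 had a peak within 1 kb of a gene end in the 4 lists, and 758 had one in all 4. A gene-end peak was missing from the IGF2BP1 knockout list alone at 12 of the 770 genes that had one in the other 3 lists (1.56%), beside a background of 0.392% over all chromosomes (50 of 12764 genes). The control list alone lacked one at 13 of 771 genes (1.69%, background 1.82%), the IGF2BP2 knockout list at 8 of 766 (1.04%, background 1.09%) and the IGF2BP3 knockout list at 6 of 764 (0.785%, background 1.46%). On chromosome 17 the percentage for IGF2BP1 was thus no higher than that of the control list. The 12 genes missing from the IGF2BP1 knockout list were SERPINF1, RTN4RL1, AIPL1, PITPNM3, TEKT1 and ZNF287 on the short arm and TNS4, CNTNAP1, IFI35, CFAP97D1, CD300LG and TLK2 on the long arm. At CFAP97D1 the IGF2BP1 knockout did have a peak, 1238 bp wide, at 1009 bp from the gene and thus 9 bp beyond the 1 kb limit. At AIPL1 and TNS4 it had peaks 1228 and 1566 bp from a gene end, those ends being opposite to the absent sites, and at the other 9 genes the nearest lay 3.9 kb or more from both ends. The absent sites had 17 genes at their ends. At 6 of them, UBTF, CCR10, LGALS3BP, ARMC7, SLC16A5 and LOC124904077, the IGF2BP1 knockout list held another gene-end peak. In the opposite direction, 4 genes were open at a gene end in the IGF2BP1 knockout list alone. They were TBX4 (1202 bp), GJD3 (1330 bp), EPN3 (1139 bp) and LOC122455342 (1028 bp), chosen after their values were seen.

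Peaks at gene ends and peaks elsewhere differed in their share. At gene ends, chromosome 17 held 895, 890, 991 and 959 peaks, and its share of all gene-end peaks in the IGF2BP1 knockout was 0.919 times that of the control. Farther from gene ends it held 961, 902, 1439 and 1124 peaks, and the IGF2BP1 knockout ratio was 0.647. The same 2 ratios were 0.979 and 0.825 for IGF2BP2 and 1.04 and 0.987 for IGF2BP3.

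Genes of chromosome 17 were also examined by group. Of 40 innate immune genes, 25, 24, 26 and 27 had a gene-end peak (62.5%, 60%, 65% and 67.5%), with 24 open in all 4 lists and 12 in none. Over all 1169 protein-coding genes of the chromosome, the percentages were 67.6%, 67.9%, 69.2% and 69.1%. Of these, 758 genes were open in all 4 lists and 333 in none. The RNA sensor regulator gene DHX58 (560, 722, 446 and 427 bp) and STAT3, a transcription factor of cytokine signalling (1228, 1458, 1269 and 1428 bp), were among the 24. The 4 that differed were IFI35, SECTM1, with a peak of 595 bp in the IGF2BP2 knockout alone, and the neighbours SLFN12 and SLFN13, which shared a peak of 841 bp in the IGF2BP3 knockout alone. Sites absent from the IGF2BP1 knockout list overlapped 5 of the 40 genes, beside 57 of 1169 protein-coding genes of the chromosome (4.88%). Beside IFI35, LGALS3BP and CCR10, these were MAP3K14, which encodes the NF-kappaB-inducing kinase (45270785 to 45271281, 497, 490 and 452 bp in the other lists), and STAT5B, a second STAT factor gene (42221944 to 42222564, 440, 621 and 541 bp). At the gene ends of MAP3K14 the widest peak measured 1242 bp in the control and 1293 bp in the IGF2BP1 knockout, and STAT5B had no gene-end peak in any list. In the other groups, absent sites overlapped SLC6A4 (of 19 neural genes), KRT17 (of 27 type I keratin genes) and FOXK2 (of 17 developmental transcription factor genes). The groups were chosen with earlier results known, and these counts were not tested.

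The clustered gene families were mostly alike in the 4 lists. In the HOXB cluster, which encodes homeobox factors of body axis patterning, 8 of 10 genes had a gene-end peak in every list, and HOXB1 and HOXB6 in none. At HOXB9 the widest peak measured 1214, 1846, 1251 and 1596 bp, and at HOXB13 1570, 1786, 1950 and 1511 bp. Of 27 type I keratin genes, 25 had none in any list, and KRT10 and KRT16 had one in all 4. Of 14 CC chemokine genes, 12 had none, CCL2 had a peak of 756 bp in the IGF2BP3 knockout alone, and CCL16 one of 677, 314 and 443 bp in every list but the IGF2BP2 knockout.

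The counts below stand beside 758 of 1169 protein-coding genes of the chromosome open at a gene end in all 4 lists and 333 in none. All 6 ribosomal protein genes were open at a gene end in the 4 lists. So were 27 of 30 cancer genes, while RARA, a retinoic acid receptor gene, and USP6, a ubiquitin protease gene, had no gene-end peak in any list. The PPM1D phosphatase gene had widths of 1535, 2214, 1252 and 1945 bp, and the cancer gene that differed, CD79B, had a peak of 717 bp in the IGF2BP3 knockout alone. Of 17 developmental transcription factor genes, 10 were open at a gene end in the control and 12 in each knockout. DLX3 had none in the control and 721, 677 and 443 bp in the 3 knockouts. TBX4 had one in the IGF2BP1 knockout alone, and NEUROD2 had 665 and 979 bp in the IGF2BP2 and IGF2BP3 knockouts. The renal developmental factor gene LHX1 was open in all 4 lists (1768, 1935, 538 and 1743 bp). Of 19 neural genes, 11 had a gene-end peak in every list, 7 in none, and SLC13A5, a citrate transporter gene, had 428 and 759 bp in the IGF2BP2 and IGF2BP3 knockouts alone.

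At the IGF2BP1 gene (48996558 to 49056145), the lists held 2, 2, 2 and 4 peaks. The site at the gene end measured 2434, 2392, 907 and 2369 bp, so that it was narrowest in the knockout of IGF2BP2. A peak list does not show the edit itself. A second site within the gene (49032097 to 49032889) measured 720, 793, 603 and 536 bp. Of 26 sites within 250 kb of the gene, 15 were in all 4 lists and 2 were absent from the IGF2BP1 knockout list alone. These lay 126.5 kb and 41.7 kb below the gene in coordinate, at 48868897 to 48870102 (1106, 530 and 654 bp) and 48954100 to 48954866 (585, 767 and 353 bp). Within 1000 kb on either side, the 4 lists held 82, 75, 100 and 88 peaks.

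Sites held by all 4 lists were compared by width. In the IGF2BP1 knockout list the median site was wider than in the control on each of the 23 chromosomes, and least so on chromosome 17, where the median log2 ratio of widths was 0.06 over 1433 sites, against 0.13 over 28083 sites elsewhere and 0.09 on the next chromosome. On chromosome 17, 62.9% of the sites were wider in the IGF2BP1 knockout than in the control, against 75.5% elsewhere. The median log2 ratio was 0.01 on the short arm and 0.08 on the long arm. In the IGF2BP2 knockout the chromosome 17 median was -0.03 (rank 6 from the lowest of 23) and in the IGF2BP3 knockout -0.03 (rank 10). In these 2 lists the short arm, at 0.00 and -0.01, did not lie below the long arm, at -0.03 in both.

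**Figure D5:**
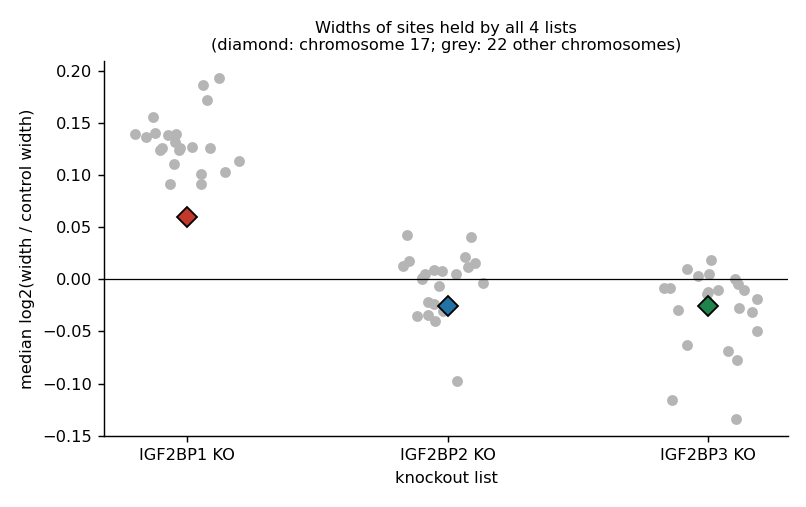
Median log2 ratio of a site's width in each knockout list to its width in the control list, over sites held by all 4 lists, for chromosome 17 (diamond) and the other 22 chromosomes (grey points). Chromosome 17 is the lowest point for the IGF2BP1 knockout, at 0.06, and lies within the range of the other chromosomes for the IGF2BP2 and IGF2BP3 knockouts.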

How the data were processed

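Per the labels, ATAC-seq libraries were made from HEK293T cells with an Omni-ATAC lysis and transposition step. The authors deposited 1 peak list per group, with 3 columns (chromosome, start and end in bp). Heights, scores and p-values are not in the lists. Per the submitters' processing notes, fastp 0.24.1, BWA 0.7.17, MACS2 3.0.0 and bedtools were used with GRCh38. The threshold, the transposase offset, the depth and how libraries were combined are not given in the sources used here. Depth and threshold both bear on how many narrow peaks a list contains, and so on each count.

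Coordinates are those of the deposited peaks, counted from 1. Peaks were assigned to windows and arms by their midpoint. Lists were merged into sites at 1 bp of overlap, and widths of a site in a list are summed over its peaks. Gene spans and promoter windows came from RefSeq tables (GRCh38.p14), in which all 163 gene-list entries matched and the IGF2BP1 promoter window had no entry; start-site windows of chromosome 8 were not used here. Interval code was tested on simulated lists (Python 3.11.15, numpy 2.4.6, scipy 1.17.1). Intervals are Wilson intervals or, for ratios of shares, log-normal ones. The members, gene lists and rules were chosen with earlier results of these data known. Named sites were those at protein-coding gene ends, the 12 widest others at least 1 kb from an IGF2BP1 knockout peak, those nearest the overlap rule, the widest peaks and list genes that differed. STAT3 and RARA are each in 2 lists. The result for 1 blood marker is not reported here. Alternatives covered list length, width, joining of peaks, gene distance, window size, arm boundary and overlap.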

Additional observations from a re-analysis of the deposited data

How the results depend on the processing

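No paired analysis was possible because each group is 1 list without values per library, and for the same reason no replicate could be left out and no batch compared. Of 68 alternative values for 19 results, 57 stayed within 1.5 times (counts) or within the 95% counting interval. No alternative moved a share ratio of the IGF2BP1 or IGF2BP2 knockout across 1. Those of the IGF2BP3 knockout, whose intervals include 1, did cross it: 0.999 became 1.01 on the widest peaks and 1.04 at gene ends, and the percentage of windows below the control went from 58.8% to 48.3% (2.5 Mb) and 44.4% (10 Mb). The arm ratios on the widest peaks and on peaks of at least 500 bp were added after seeing the data and stayed within their intervals. Counting gene-end peaks alone moved the chromosome 17 share ratio of the IGF2BP1 knockout to 0.919 and that of the IGF2BP2 knockout to 0.979, and counting peaks away from gene ends moved the former to 0.647. With 10 Mb windows, 100% of windows lay below the control in the IGF2BP1 knockout. Keeping the 39194 widest peaks of each list gave 134 absent sites, 10.4% of chromosome 17 sites, and 1.85 times the percentage elsewhere in place of 2.78. Keeping peaks of at least 500 bp gave 55 absent sites, 4.35% and 3.57 times. Genes at absent sites numbered 17 within 1 kb, 43 within 5 kb and 57 by overlap with the gene. Depth is unknown, so absence from a list means only that no peak was called there.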

Other observations

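The longest stretch of chromosome 17 without a peak in any list was not at the centromere but on the long arm, 1.61 Mb from 53106384 to 54712712, and a further stretch of 0.649 Mb without a peak lay just below it, from 52383985 to 53032854. The window from 50 to 55 Mb, which holds both, had 57 control peaks and 35 protein-coding genes, whereas the window from 40 to 45 Mb had 190 control peaks and 182 genes.

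Chromosome 17 sites held by the IGF2BP2 and IGF2BP3 knockout lists together and by neither other list numbered 161, or 5.90% of its sites against 3.38% on the other chromosomes. Sites in the control and IGF2BP3 knockout lists alone made up 1.17% against 0.502%. Sites in the IGF2BP1 and IGF2BP2 knockout lists alone made up 2.27% against 8.16%. Chromosome 17 was chosen for its low share in the IGF2BP1 knockout list. Higher shares of classes without that list, and lower shares of classes with it, partly follow from the choice.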
